A study of Mus musculus with 14 samples.

Results

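The genes described here are 9 genes of B cells and lymphoid follicles, namely Ms4a1, Cr2, Cd79a, Cd79b, Fcer2a, Glycam1, Pou2af1, Blk and Ltb. They were chosen by name, as the probes whose gene name in the scanner files equals one of these symbols, and all 9 were found, on 11 probes, among the 36282 gene names of the array. Expression was measured on 14 one-color arrays. Healthy small intestine of wild-type C57BL/6J mice was measured on 3 arrays, each from another mouse by the study's sample table, and colon, labelled with the same strain, on 3 arrays. Adenomas were measured on 3 arrays and the tissue next to them on 2 arrays, both from mice of the strain APCmin/+, which carry 1 mutant copy of Apc in every cell and form intestinal adenomas. CT26, a cell line derived from a colon carcinoma of a BALB/c mouse and kept in culture, was measured on 3 arrays. The study calls the healthy intestine samples mucosa and describes no sorting of the arrayed tissues, no sample was treated, the wild-type mice were adults, and the ages of the individual animals are not given in the sources used here. The study design lets normal tissue be compared with adenomas, an early tumor stage, and with CT26, an advanced one.

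The sample table of the study limits the groups further. All adenoma and adjacent arrays came from 1 APCmin/+ mouse, so the spread within these groups holds no difference between animals, and 1 of the colon RNAs is listed there under an APCmin/+ mouse although the labels give C57BL/6J for all 3. Colon replicate 3 went in part against its label. The colonocyte gene Car1, a carbonic anhydrase, stood at 7.17 and 7.75 on colon replicates 1 and 2 and at -3.09 on replicate 3, in log2 units above the 75th percentile of the array. Apoa4, an apolipoprotein of small intestine enterocytes, stood at -6.13 and -5.74 on the first pair, where it was not well above background, and at 4.44 on replicate 3. Over the lists used as a check, the median of 8 enterocyte genes was -1.21, -0.67 and 5.04 on colon replicates 1, 2 and 3, and the median of 6 colonocyte genes was 6.01, 5.94 and 0.31. Of those 6, Saa1 (7.49, 7.05 and 9.38) and Car4 (5.59, 5.11 and 6.55) were highest on replicate 3. Car1, Aqp8 (6.44, 6.78 and -4.61), Slc26a3 (3.67, 3.92 and 2.44) and Ly6g6c (-0.17, 1.26 and -1.82) were lowest there. In small intestine Saa1 stood at -0.15, -0.8 and -0.84 and Car4 at 4.38, 4.3 and 5.09. The origin of this array was not tested. Over the 20833 probes well above background on all 14 arrays, replicate 3 correlated at 0.934 to 0.938 with the other colon arrays. With the 3 small intestine arrays it correlated at 0.951 to 0.969. The comparisons with colon are therefore given with and without this array. On CT26 the epithelial genes Epcam, Cdh1 and Vil1 were not well above background on any of the 3 arrays, whereas Krt8 was on 2 of 3 and Krt20 and Cldn7 on all 3. The share of probes well above background lay between 46.9% and 58.2% of an array, lowest on colon replicate 3.

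B cells recognize antigen through a membrane immunoglobulin that signals through the paired chains encoded by Cd79a and Cd79b, and they gather in follicles, where follicular dendritic cells display antigen that has bound complement. Lymphotoxin on lymphocytes signals to stromal cells, which then produce the chemokines and adhesion molecules that draw further lymphocytes in, partly through high endothelial venules. In the gut wall such follicles form the Peyer's patches, the colonic patches and many small isolated follicles, scattered along its length. In bulk tissue, fewer cells of a type and less RNA per cell cannot be told apart.

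The sequences below show which part of a transcript was read by the probes on which the results turn. Glycam1 and Blk each had a single probe, and Cd79a had 2 that behaved differently. Coordinates are those of the array design on mm9, and every probe is 60 bases long.
Glycam1 probe, chr15:103393339-103393398, minus strand: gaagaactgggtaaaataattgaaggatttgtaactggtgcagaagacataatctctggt
Blk probe, chr14:63997333-63998470, minus strand: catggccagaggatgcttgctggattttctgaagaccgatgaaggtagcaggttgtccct
Cd79a second probe, chr7:25684357-25684614, plus strand: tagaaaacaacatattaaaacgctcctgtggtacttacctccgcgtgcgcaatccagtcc
Cd79a brighter probe, chr7:25686823-25686882, plus strand, its last 30 bases: gtgataataaatccttcccaaagcAAAAAA

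The Blk probe and the second Cd79a probe span 1138 and 258 bases of the genome, more than their own length, so each crosses an intron. Capitals mark the run of 6 A at the 3′ end of the brighter Cd79a probe, which 10 of the 11 member probes lack. This probe was well above background on 14 of 14 arrays, the cell line included, and the second Cd79a probe on 6 of 14. The other members were read at chr19:11325367-11325426 (Ms4a1), chr1:196965532-196965591 (Cr2, the brighter of 2 probes), chr11:106172780-106172839 (Cd79b), chr8:3682343-3682402 (Fcer2a), chr9:51048121-51048180 (Pou2af1) and chr17:35333097-35333156 (Ltb). Each gene is described by its probe with the highest mean signal, no member probe was saturated, and all 9 genes passed the filter for testing, which asked for a signal well above background on at least 2 of the 14 arrays. Blk, with 2 arrays, and Glycam1, with 3, passed through the colon arrays alone. Both had to be higher in colon by this filter, so counts of members in the comparisons with colon are given over the other 7 genes.

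Throughout, a level is the log2 signal of a probe minus the 75th percentile of its array. Levels of different probes are not compared with each other. The signal chains of the B cell receptor come first. Cd79b stood at -0.95, -1.09 and -1.05 on the small intestine arrays, at -0.03 and 0.34 on the adjacent arrays, at -0.37, -0.19 and -0.22 on the adenoma arrays, at 1.34, 1.81 and 4.46 on the colon arrays and at -6.28, -4.42 and -4.01 on the CT26 arrays. All colon arrays were above all others, the small intestine arrays were the lowest of the tissues, and 2 of 3 CT26 arrays were well above background. Cd79a stood at -1.90, -2.18 and -1.43 in small intestine, -1.56 and -1.36 in adjacent tissue, -1.80, -1.75 and -1.86 in adenomas, -0.62, 0.01 and 2.32 in colon and -2.73, -2.37 and -3.20 in CT26. The colon arrays were again on top. Small intestine overlapped with adjacent tissue and with adenomas, whereas both adjacent arrays lay above the adenoma arrays. The second Cd79a probe also had colon highest and CT26 lowest but put adenomas below small intestine, with means of -2.84 ± 1.45 in colon, -4.44 ± 0.11 in adjacent tissue, -4.52 ± 0.08 in small intestine, -4.76 ± 0.30 in adenomas and -5.17 ± 0.54 in CT26 (SD, n = 3, or 2 for adjacent tissue), and it was well above background on 3 of 3 colon arrays and on 0 of 3 CT26 arrays.

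Blk encodes a Src-family kinase of the B lineage that acts below the receptor. Its level was -4.69, -3.93 and -2.0 on the colon arrays, of which replicates 2 and 3 were well above background. On the other 11 arrays it lay between -7.00 and -4.90 and was never well above background, so its order among these groups has no meaning. Pou2af1 encodes a coactivator that binds the Oct factors at immunoglobulin promoters and is also used in plasma cells. It stood at -2.17, -1.53 and -2.83 in small intestine, -0.97 and -0.42 in adjacent tissue, -1.30, -1.22 and -1.13 in adenomas, -2.26, -0.28 and 1.0 in colon and -6.82, -6.02 and -6.77 in CT26. This was the one member whose colon arrays ran through the range of the other tissues, with replicate 1 among the small intestine values.

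The surface proteins of mature B cells come next. Ms4a1 encodes CD20, the target of therapeutic antibodies against B cells. It stood at -4.04, -6.19 and -6.49 in small intestine, -3.71 and -3.55 in adjacent tissue, -5.65, -6.61 and -5.24 in adenomas, -0.15, 0.53 and 2.80 in colon and -6.65, -7.03 and -7.12 in CT26. Its signal was well above background on all colon and adjacent arrays and on small intestine replicate 1, but on none of the 3 adenoma or 3 CT26 arrays. Cr2 encodes complement receptors of B cells and follicular dendritic cells. Its level was -3.64, -5.05 and -4.44 in small intestine, -3.87 and -3.38 in adjacent tissue, -3.80, -4.93 and -4.01 in adenomas, 0.52, -0.16 and 2.85 in colon and -2.42, -3.37 and -2.19 in CT26.

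The 3 non-colon tissues overlapped for Cr2, and CT26 was well above background on 3 of 3 arrays, at a mean of -2.66 ± 0.62 (SD, n = 3). The second Cr2 probe was well above background on 3 of 3 colon arrays (-2.05, -2.62 and 0.12) and on 2 of 3 CT26 arrays (-4.30, -7.35 and -4.48), so both probes gave a signal in the cell line. Fcer2a encodes CD23, the low-affinity IgE receptor of follicular B cells. Its level was -4.17, -3.70 and -4.17 in small intestine, -4.26 and -4.19 in adjacent tissue, -4.86, -4.92 and -5.02 in adenomas, -2.76, -2.17 and -0.33 in colon and -4.09, -4.47 and -4.36 in CT26. The colon arrays were highest and the adenoma arrays were the lowest of all, with 1 of 3 well above background. The CT26 value of -4.09 lay among the small intestine and adjacent values, and those of -4.47 and -4.36 lay just below them.

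Ltb encodes lymphotoxin beta, the membrane anchor of the lymphotoxin that B cells, T cells and innate lymphoid cells use in building follicles. It stood at 0.08, 0.51 and 1.07 in small intestine, 0.55 and 0.89 in adjacent tissue, -0.71, 0.00 and 0.20 in adenomas, 1.59, 1.97 and 4.49 in colon and -5.80, -6.59 and -6.13 in CT26. Ltb was well above background on all 11 tissue arrays and on none of the CT26 arrays. Glycam1 encodes a mucin-like glycoprotein of high endothelial venules that carries ligands of L-selectin. Its level was -3.06, -0.63 and -1.16 in colon, and on the other 11 arrays it lay between -7.60 and -6.43 and was not well above background. Like Blk, it was seen in colon and in no other group, and it was the one of the pair found on all 3 colon arrays.

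On colon replicate 3 the level exceeded the mean of colon replicates 1 and 2 by 0.69 for Glycam1 and by 2.13 for Fcer2a to 2.88 for Cd79b among the other 8 genes. Glycam1 was also the exception in its order, being higher on colon replicate 2 than on replicate 3. For Ms4a1, Cr2, Cd79a, Cd79b, Fcer2a and Ltb the lowest colon array was still above the highest of the 8 other tissue arrays, and for Pou2af1 it was not. Glycam1 and Blk had this order too, but the filter admitted them through colon alone. The share of all genes with this order was not computed. Averaged over the 9 genes, the level was -3.46 to -3.28 on the small intestine arrays, -2.83 and -2.80 on the adjacent arrays and -3.62 to -3.44 on the adenoma arrays. It was -1.12, -0.32 and 1.60 on colon replicates 1, 2 and 3, and -5.41 to -5.32 on the CT26 arrays.

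**Figure D1:**
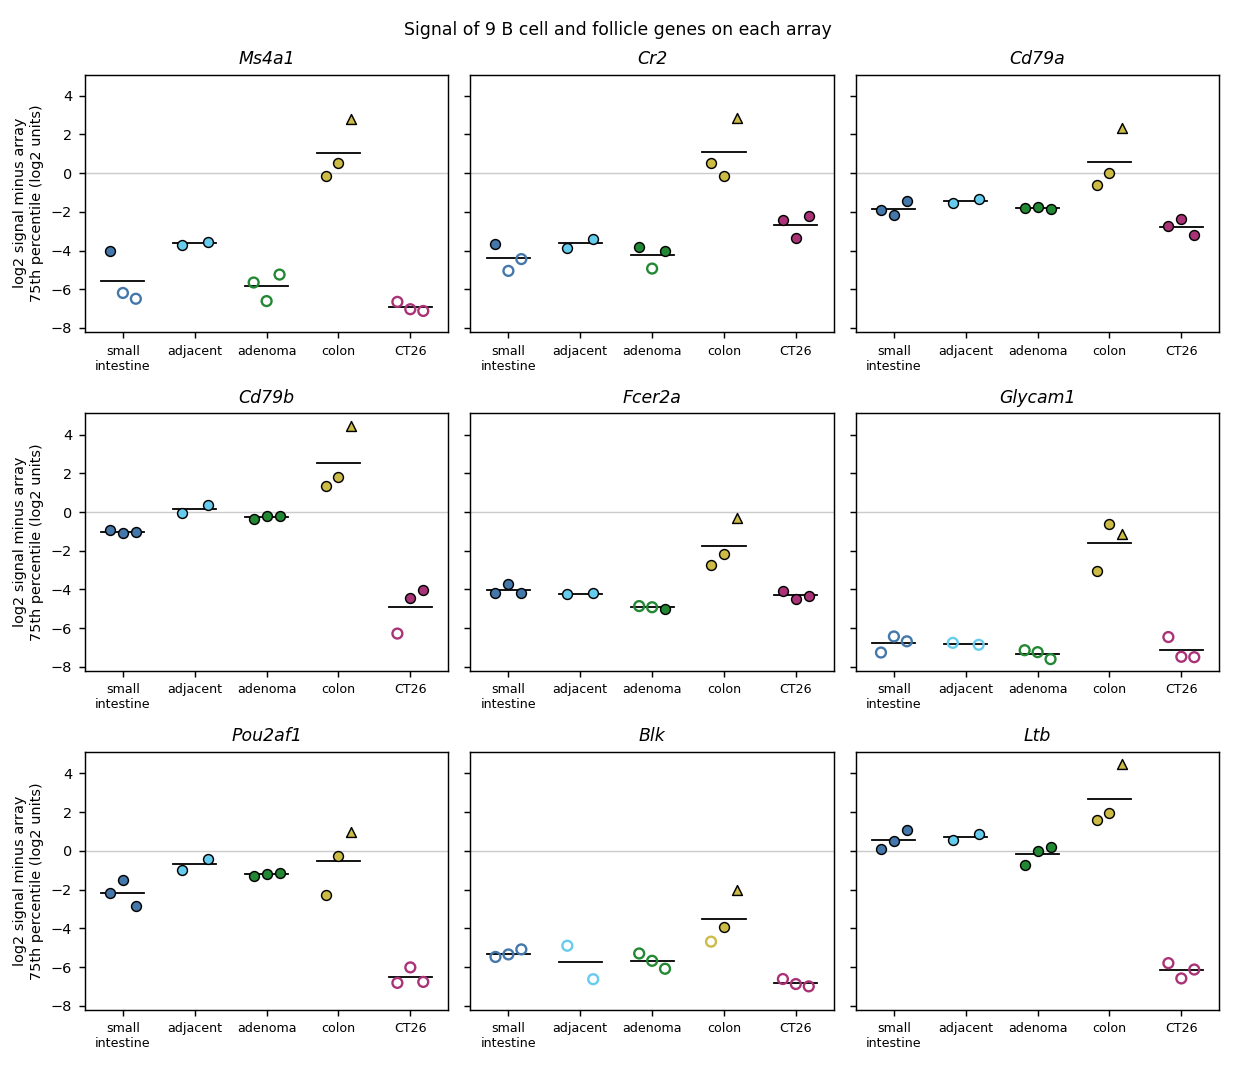
Level of each gene on every array (y axis, log2 signal minus the 75th percentile of the array, in log2 units) for the 5 groups (x axis). Points are arrays, filled where well above background and open where not, triangles are colon replicate 3 and bars are group means. The colon points lie above all other tissue points for 8 genes, with Glycam1 and Blk counted although the filter admitted them through colon alone. Replicate 3 is on top for all but Glycam1.

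Colon was compared with small intestine first, which asks where these genes stood in normal tissue. All 9 genes were higher in colon on average. Of the 7 genes detected outside colon, 6 had all 3 colon arrays above all 3 small intestine arrays, Pou2af1 being the exception. Of all 26166 genes tested, 12.4% had all 3 colon arrays above their small intestine arrays without overlap. Without colon replicate 3 the count of members was 6 as well, but the share of all genes was not computed for that smaller set of arrays. The difference of means was 6.63 ± 0.94 (log2, SE, n = 3 and 3) for Ms4a1, 5.45 ± 0.81 for Cr2 and 3.56 ± 0.79 for Cd79b, which correspond to 99.0-fold, 43.6-fold and 11.8-fold, although only 1 of the 3 small intestine arrays gave a signal well above background for Ms4a1 and for Cr2. Glycam1 was at least 7.58-fold higher in colon, a bound set against the lowest signal that counted as well above background on the small intestine arrays. Cd79a, Fcer2a and Ltb differed by 2.41 ± 0.75, 2.26 ± 0.62 and 2.13 ± 0.77 (log2, SE), Pou2af1 by 1.67 ± 0.82, and Blk, detected on 2 of the 3 colon arrays, was at least 2.0-fold higher.

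None of these differences passed the thresholds, a log2 difference of 1.2 and an adjusted p of 0.01 in limma. Adjusted p ran from 0.0628 for Glycam1 to 0.305 for Pou2af1. An unadjusted p under 0.05 was found for 6 of the 7 genes, beside 7400 of all 36359 probes tested. Calls were as few over all genes, with 0.00764% called in either direction, so the count of 0 members says little. The median was 2.41 over the 7 genes as over all 9, beside -0.03 over all genes tested. Without colon replicate 3, 3 of the 7 genes were called higher in colon, beside 1.60% of all genes, namely Ms4a1 (difference 5.76 ± 0.77, adjusted p = 0.00919 in limma), Cr2 (4.56 ± 0.47, adjusted p = 0.0048) and Cd79b (2.60 ± 0.26, adjusted p = 0.00419). The differences of Fcer2a (1.55 ± 0.31), Cd79a (1.53 ± 0.34), Ltb (1.23 ± 0.36) and Pou2af1 (0.91 ± 0.67) were then smaller and not called, with adjusted p between 0.0266 and 0.368. Glycam1 was at least 6.46-fold higher, with an adjusted p of 0.0119, and Blk at least 1.17-fold (adjusted p = 0.0844). The median was 1.55 over the 7 genes as over all 9, beside -0.09 over all genes. By the barcodes in the scanner files the arrays lay on 2 slides. Within each slide all 9 genes were higher in colon, by 1.35 to 6.34 on slide 1 and by 0.91 to 7.51 on slide 2, which holds colon replicate 3. These ranges include Glycam1 and Blk, and the share of all genes was not computed within slides. The second Cr2 probe differed by 4.27 ± 0.74 and the second Cd79a probe by 1.68 ± 0.69, with adjusted p of 0.0889 and 0.239 in limma.

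Adenomas were then compared with colon, with the same 3 colon arrays, which the comparison with CT26 shares as well. Without colon replicate 3, the enterocyte genes Apoa4 and Lct were higher in adenomas, by 11.7 and 10.2 (log2). Of the same list, Fabp6 and Slc5a1 were lower (-3.28 and -0.65), and the colonocyte gene Car1 differed by -10.9. The labels also give another genotype for the adenomas. Tumor state, gut region and genotype therefore cannot be told apart in this comparison. Ms4a1 was called lower in adenomas, 1 of the 7 genes detected outside colon, beside 0.776% of all genes called lower. Glycam1, which the filter admitted through colon alone, was called lower too. Ms4a1 was at least 68.0-fold lower (means -5.83 ± 0.70 in adenomas and 1.06 ± 1.55 in colon, SD, n = 3 and 3, adjusted p = 0.00845 in limma) and Glycam1 at least 10.8-fold lower (means -7.33 ± 0.24 and -1.61 ± 1.28, adjusted p = 0.00719). For both, no adenoma array was well above background. Cr2 differed by -5.31 ± 0.80 and Fcer2a by -3.18 ± 0.61 (log2, SE), with adjusted p of 0.0158 and 0.0325, and at an adjusted p of 0.05 with no bound on the difference these and Ms4a1, 3 of the 7 genes, were lower, beside 4.67% of all genes, as was Glycam1. The median was -2.85 over the 7 genes as over all 9, beside -0.12 over all genes. All adenoma arrays lay below all colon arrays for 6 of the 7 genes, beside 19.5% of all genes, with Pou2af1 the exception at a difference of -0.71 ± 0.78.

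Without colon replicate 3, 4 of the 7 genes were called lower in adenomas, beside 4.74% of all genes. The median was -1.95 over the 7 genes as over all 9. Those called were Ms4a1, at least 37.2-fold lower, Cr2 (-4.42 ± 0.41), Cd79b (-1.83 ± 0.21) and Fcer2a (-2.47 ± 0.22), and Glycam1, at least 9.24-fold lower, was called beside them, with adjusted p between 0.00194 and 0.00713 in limma. Ltb and Cd79a differed by -1.95 ± 0.32 and -1.49 ± 0.23 (log2, SE) there, with adjusted p of 0.0145 and 0.0119, and Pou2af1 changed its sign, to 0.05 ± 0.58. Within slides all 9 genes, Glycam1 and Blk included, were lower in adenomas, with differences from -6.74 to -0.94 on slide 1 and from -7.93 to -0.60 on slide 2. With the slide as a block no member was called, beside 2 of all 26166 genes called lower, and Ms4a1 and Glycam1 had adjusted p of 0.0336 and 0.0249 in limma.

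CT26 cells gave less signal than colon tissue for all 9 genes. Of the 7 genes detected outside colon, 6 were called lower in CT26 than in colon, beside 15.4% of all genes called lower, and for all 7 the CT26 arrays lay below the colon arrays without overlap, beside 25.7% of all genes. Glycam1 and Blk were called lower as well, but the filter admitted them through colon alone. The largest differences among the members were those of Ltb, at least 249-fold lower (adjusted p = 0.000134 in limma), Cd79b, with a difference of -7.44 ± 0.93 (log2, SE, adjusted p = 0.000775), and Ms4a1, at least 80.7-fold lower (adjusted p = 0.000182). Pou2af1 was at least 27.2-fold lower, Glycam1 at least 12.7-fold and Blk at least 3.33-fold. Cr2 (-3.73 ± 0.78) and Cd79a (-3.34 ± 0.74) were lower with a signal that stayed well above background in the cell line. Fcer2a, at -2.56 ± 0.61 and an adjusted p of 0.0125, did not pass. The median was -6.03 over the 7 genes, beside 0.11 over all genes. Over all 9 it was -5.53, or -3.73 with the genes not detected in CT26 set at their bounds.

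Without colon replicate 3 all 7 genes were called lower in CT26, beside 17.1% of all genes, and so were Glycam1 and Blk. The median was -5.27 over the 7 genes as over all 9, or -3.43 over the 9 with the bounds. Ltb was then at least 133-fold lower, Ms4a1 at least 44.1-fold, Pou2af1 at least 16.1-fold, Glycam1 at least 10.8-fold and Blk at least 1.95-fold. Cd79b (-6.48 ± 0.68), Cr2 (-2.84 ± 0.45), Cd79a (-2.46 ± 0.38) and Fcer2a (-1.85 ± 0.32) had smaller differences than with all arrays (log2, SE). Within slides the 9 genes, Glycam1 and Blk included, differed by -7.94 to -2.06 on slide 1 and by -9.62 to -2.93 on slide 2. With the slide as a block Ms4a1, Cd79b, Pou2af1 and Ltb were called lower, beside 3353 of all 26166 genes, and Ltb had an adjusted p of 0.000711 in limma. Glycam1, admitted through colon alone, was called there too. Markers of other cells of a tissue were in part above background in the cell line. Of 12 T cell genes 4 to 6 were well above background on a CT26 array, of 5 macrophage genes 2 or 3 and of 6 smooth muscle genes 3, with list medians of -5.41 to -4.93, -5.35 to -4.50 and -4.96 to -4.60. Cd3g and Cd3d, Adgre1 and Lyz2, and Cnn1 and Myh11 were not well above background on any of these arrays, whereas Cd4, Lck, Csf1r, Cd14 and Tagln were on all 3. The part of these markers in the comparison was not tested.

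**Figure D2:**
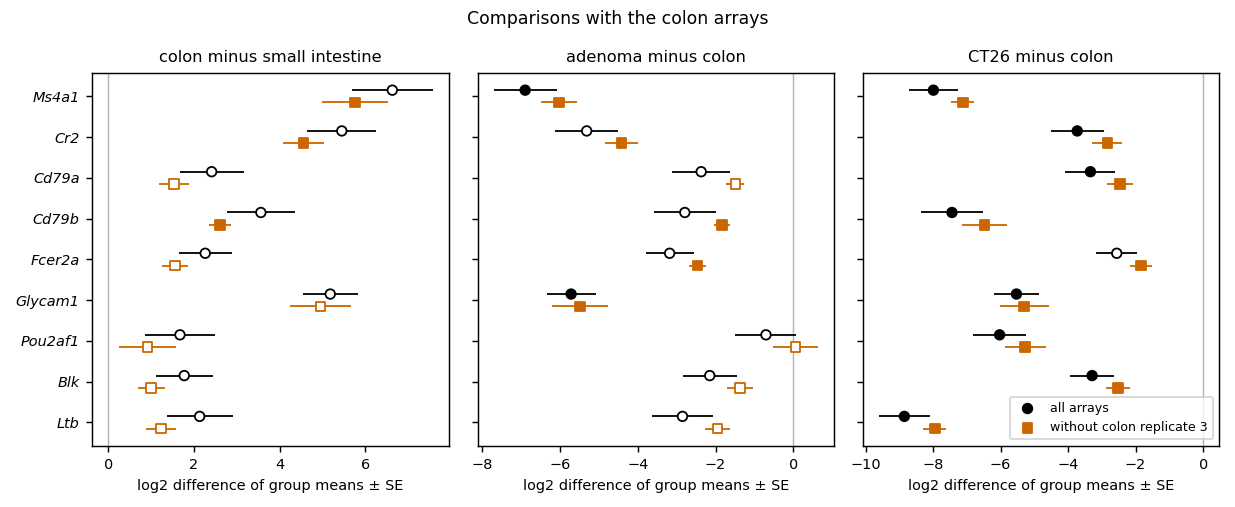
Difference of group means (x axis, log2 units, bars are the SE of limma) of the 9 genes in the 3 comparisons with colon, with all arrays (circles) and without colon replicate 3 (squares). Filled symbols passed the thresholds. With all arrays 0, 2 and 8 genes passed, and without colon replicate 3, 3, 5 and 9, with Glycam1 and Blk counted although the filter admitted them through colon alone, while all differences but that of Pou2af1 between adenomas and colon kept their side of 0.

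Among healthy small intestine, adjacent tissue and adenomas no member passed the thresholds. Between adenomas and healthy small intestine 0 of 9 genes were called, whereas 17.9% of all genes were. Of the 9 genes, 3 had an unadjusted p under 0.05 in limma, beside 18843 of all 36359 probes tested. Cd79b was 1.70-fold higher in adenomas (difference 0.77 ± 0.16, log2, SE, n = 3 and 3, adjusted p = 0.0104 in limma) and Pou2af1 1.95-fold higher (0.96 ± 0.33, adjusted p = 0.0542). Fcer2a differed the other way, by -0.92 ± 0.20 (adjusted p = 0.0113), on a signal well above background on 1 of 3 adenoma arrays. The groups did not overlap for these 3 genes, but the share of all genes without overlap was not computed for this comparison. At an adjusted p of 0.05 with no bound on the difference 2 of 9 genes passed, Cd79b and Fcer2a, beside 43.5% of all genes. The other 6 differences lay between -0.73 ± 0.34 (Ltb) and 0.13 ± 0.44 (Cr2), and the median of the 9 genes was -0.26, beside -0.20 over all genes. Glycam1 and Blk, among these 6, were not well above background on any array of either group. Within slides 3 of 9 genes were higher in adenomas on slide 1 and 4 of 9 on slide 2, these undetected genes included.

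Between adenomas and their adjacent tissue, both from the same mouse, 0 of 9 genes were called, beside 0.558% of all genes in either direction. Of the 7 genes detected outside colon, 3 had an unadjusted p under 0.05 in limma, beside 11621 of all 36359 probes tested. The adenoma arrays lay below both adjacent arrays for 6 of those 7 genes, beside 28.6% of all genes. Glycam1 and Blk were not well above background on any of these arrays, so their order has no meaning. Ms4a1 was at least 2.64-fold lower in adenomas (means -5.83 ± 0.70 and -3.63 ± 0.11, SD, n = 3 and 2), with an adjusted p of 0.0378 in limma. Fcer2a differed by -0.71 ± 0.15 (log2, SE, adjusted p = 0.0489), Ltb by -0.89 ± 0.32 and Pou2af1 by -0.52 ± 0.22, the last pair with adjusted p of 0.13 and 0.169. At an adjusted p of 0.05 with no bound on the difference 2 of 9 genes were lower in adenomas, Ms4a1 and Fcer2a, beside 5.64% of all genes. Within slides, with the undetected Glycam1 and Blk included, all 9 differences were below 0 on slide 1, from -1.73 to -0.0381. On slide 2, 8 of 9 were below 0, in a range from -3.06 to 0.954, Blk being the exception. As in the other comparisons, the share of all genes was not computed within slides, so these counts have no background.

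Adjacent tissue was compared with healthy small intestine last. No member was called, beside 0.00382% of all genes, which is 1 gene. An unadjusted p under 0.05 in limma was found for 3 of 9 genes, beside 8867 of all 36359 probes tested. Ms4a1, Cd79b and Pou2af1 had both adjacent arrays above all 3 small intestine arrays, 3 of 9 genes beside 20.4% of all genes, with differences of 1.94 ± 0.75, 1.18 ± 0.24 and 1.48 ± 0.43 (log2, SE, n = 2 and 3) and adjusted p of 0.192, 0.0929 and 0.132 in limma. Glycam1 and Blk were not well above background on any of these arrays, and the other 4 genes differed by -0.21 ± 0.26 (Fcer2a) to 0.76 ± 0.46 (Cr2). Within slides 7 of 9 genes were higher in adjacent tissue on slide 1 and 6 of 9 on slide 2, again with these undetected genes included. The adenoma and small intestine arrays are shared with the comparisons above, so the 3 sets of values are not independent of each other. Only 2 adjacent arrays from 1 animal stand behind these values, and a miss of the threshold does not show that the tissues were alike.

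**Figure D3:**
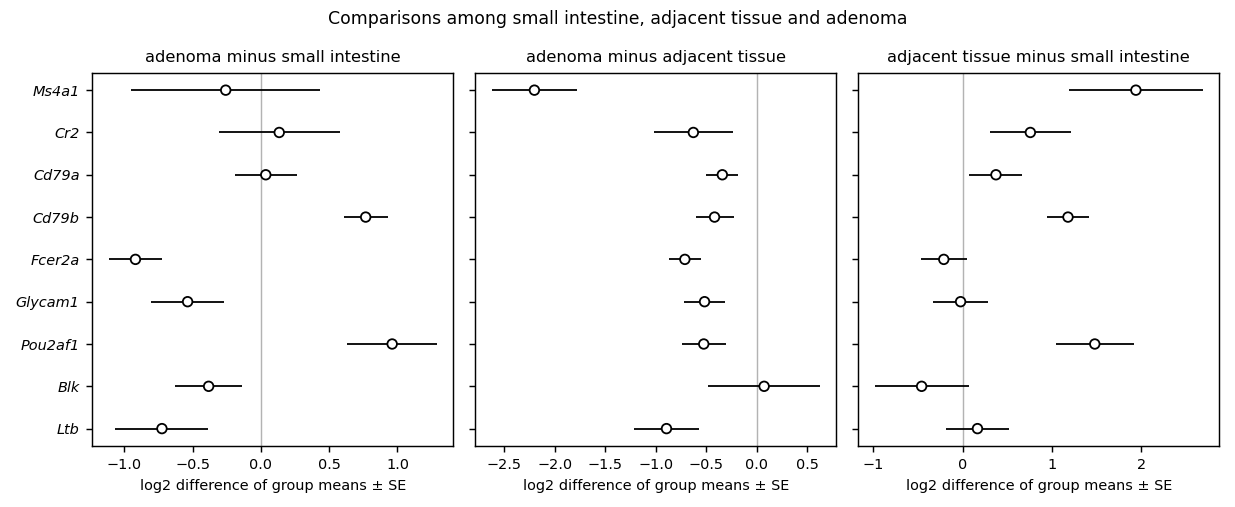
Difference of group means (x axis, log2 units, bars are the SE of limma) of the 9 genes among small intestine, adjacent tissue and adenomas. Open circles did not pass the thresholds, which holds for all 27 values, and the widest difference is that of Ms4a1 between adenomas and adjacent tissue.

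Other genes of B cells were read from lists to see how far the 9 genes stood alone. Of 9 tested genes of the receptor and its coreceptors, 8 were higher in colon than in small intestine on average, 0 were called and their median difference was 1.71. Tnfrsf13c, the receptor for the survival factor BAFF, differed by 4.60 ± 0.87 (log2, SE), with an adjusted p of 0.0988 in limma. Of 10 other B cell surface genes 9 were higher in colon on average, with a median of 1.57, led by Fcmr, an Fc receptor for IgM, at 6.70 (adjusted p = 0.066), and Btla, an inhibitory receptor, at 3.69 (adjusted p = 0.106). The medians without colon replicate 3 were 1.11 and 1.42, and the calls are to be read beside the 1.60% of all genes called higher and the 2.37% called lower. From the first list 2 genes were then called higher, among them Tnfrsf13c (3.58, adjusted p = 0.00542). From the second Fcmr was called higher (5.89, adjusted p = 0.00733) and Fcrl5, an Fc receptor-like protein, lower (-2.18, adjusted p = 0.00596).

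The genes that draw lymphocytes into follicles come next. All 7 tested chemokines and receptors were higher in colon on average than in small intestine, with a median of 3.50, a range from 0.81 (Ccl19) to 6.57 (Cxcl13) and 0 called. The median without colon replicate 3 was 2.67 and 2 were called higher, Cxcl13 (5.94, adjusted p = 0.00889 in limma) and Cxcr5, at least 8.01-fold (adjusted p = 0.00442). Cxcl13, the chemokine of follicle stroma that attracts B cells, stood at -4.01, -6.17 and -6.63 in small intestine, -2.17 and -2.17 in adjacent tissue, -4.75, -4.11 and -3.76 in adenomas, 0.36, 0.30 and 2.22 in colon and at -6.81 or below in CT26. Its difference between adenomas and colon, -5.17 (adjusted p = 0.00761 in limma), was called, the one call among the 7, of which 6 were below 0 and Cxcr4 above, and without colon replicate 3 it was -4.54 (adjusted p = 0.00163) and 3 of the 7 were called, with Cxcr5 and Ccr6. Its receptor Cxcr5 stood at -1.91, -1.16 and 1.05 in colon and at -4.30 or below elsewhere, and Ccr6, a chemokine receptor of B cells and of cells in isolated follicles, at -0.54, 0.21 and 2.49 in colon and at -2.03 or below elsewhere.

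In the lymphotoxin pathway 4 of 9 tested genes were higher in colon than in small intestine on average, with a median of -0.04 and 0 called, and 3 of 9 with a median of -0.25 and 0 called without colon replicate 3. Lta, the soluble partner of Ltb, stood at -4.02, -3.47 and -1.53 in colon and was not well above background on any other array. It is among the genes counted as higher in colon, although the filter admitted it through colon alone, like Glycam1 and Blk. The receptor gene Ltbr lay between 4.18 and 5.41 on all 14 arrays. Genes of high endothelial venules beside Glycam1 were not confined to colon. Madcam1, the vascular addressin of the gut, stood at -0.76, -0.46 and -0.96 in small intestine, 1.37 and 1.2 in adjacent tissue, 0.37, 0.67 and 1.07 in adenomas and -1.12, 1.0 and 2.06 in colon, and was called higher in adenomas than in small intestine (difference 1.43, adjusted p = 0.00534 in limma), as was Chst2, a sulfotransferase that helps build L-selectin ligands (at least 2.75-fold, adjusted p = 0.00332), which was not well above background on any small intestine array. That made 2 of 5 tested genes of the list called higher and 0 lower, with a median of 0.61, beside 8.91% of all genes called higher in this comparison. Between colon and small intestine the list had a median of 1.38 and 0 called, and without colon replicate 3 a median of 1.47, with Fut7, a fucosyltransferase, called lower (-2.16, adjusted p = 0.00892).

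Genes of germinal centers, plasma cells and T cells gave other patterns. Gcsam, a signaling protein of germinal center B cells, was well above background on 1 of 14 arrays, colon replicate 2. Of 7 germinal center genes 4 were tested, with 0 called between colon and small intestine and a median of -0.11, or 0.05 and 0 called without colon replicate 3. Jchain, the joining chain of secreted IgA and IgM, stood at 5.23, 5.60 and 4.25 in small intestine, 5.84 and 5.83 in adjacent tissue, 4.90, 5.19 and 5.08 in adenomas and 1.35, 5.19 and 2.01 in colon, so that colon replicate 3 was low where the 9 genes were high. The 8 plasma cell genes had a median difference of -0.23 between colon and small intestine, with 3 above 0 and 0 called, although their median level of -2.11, -0.01 and 1.08 was again highest on colon replicate 3. Without that array the median was -0.18, with 0 called.

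Of 12 T cell genes 2 were higher in colon than in small intestine on average, with a median of -1.57 and 0 called. The median without colon replicate 3 was -1.65 and Cd4 was then called lower (-3.96, adjusted p = 0.00388 in limma). Cd3g, a chain of the T cell receptor complex, stood at 0.47, 0.82 and 1.40 in small intestine and at -2.24, -1.48 and -1.97 in colon. Between adenomas and small intestine 6 of the 12 T cell genes were called lower and none higher, with a median of -1.63, beside 9.01% of all genes called lower. They included Cd3g (-3.05), Cd4 (-2.88) and Cd8a (-2.80), with adjusted p of 0.000733, 0.000928 and 0.00217 in limma, and Trat1, at least 2.33-fold lower (adjusted p = 0.000287) and not detected well above background on any adenoma array. In the same comparison 1 of 9 genes of the receptor and coreceptor list was called higher (Fcgr2b, an inhibitory Fc receptor, 1.73, adjusted p = 0.00589) and 0 lower.

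Transcription factors of B cells were read last, with the genes that signal below the receptor. Of 11 tested factors 5 were higher in colon than in small intestine on average, with a median of -0.26 and 0 called, and 3 with a median of -0.52 and 0 called without colon replicate 3. Between adenomas and small intestine Ebf1, an early B lineage factor that is also active in stroma and fat, was called higher, by at least 2.04-fold (adjusted p = 0.00655 in limma), over small intestine arrays that were not well above background, and Spib (-2.44), Ciita (-2.27) and Bach2 (-1.24) were called lower, with adjusted p of 0.00449, 0.00241 and 0.00577. Spib is also active in M cells, which cover follicles, and Ciita drives the genes of antigen presentation in epithelium as well. Of 13 genes that signal below the receptor 7 were higher in colon than in small intestine on average, with a median of 0.33 and 0 called. Without colon replicate 3 the median was -0.12, and Blnk was called higher (2.45, adjusted p = 0.00361) and Dapp1 lower (-2.78, adjusted p = 0.00312). Between adenomas and small intestine Blnk, an adaptor, was called higher (1.75, adjusted p = 0.000629) and Dapp1 and Lyn lower (-1.45 and -1.28, adjusted p = 0.00116 and 0.00401). In CT26 the adaptor gene Bank1 stood at 0.44, 0.05 and 0.24, above the 0.02 of colon replicate 3 and well above background, in contrast to the members Ms4a1, Blk, Pou2af1, Ltb and Glycam1.

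Markers of other cells also differed between the colon arrays. The adipocyte gene Adipoq stood at -4.22, -3.63 and 0.14 on colon replicates 1, 2 and 3 and at -0.25, 1.51 and -6.09 in small intestine, and the median of 5 adipocyte genes was -4.22, -3.63 and 0.14 on the colon arrays. The median of 6 epithelial genes was 6.70, 6.83 and 8.55 there, that of 6 smooth muscle genes 6.82, 7.06 and 6.62, that of 12 T cell genes -2.17, -1.33 and -2.23 and that of 5 macrophage genes -0.48, 0.38 and 1.0. The part of these markers in the levels of the 9 genes was not tested.

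**Figure D4:**
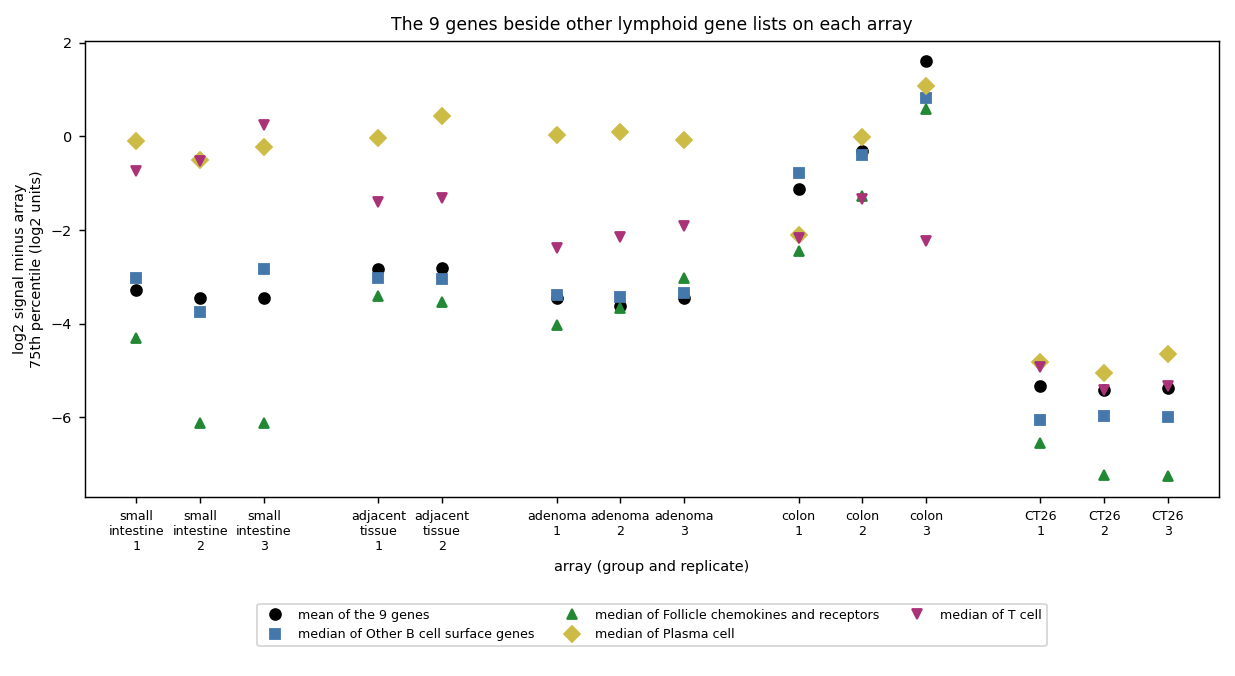
Mean level of the 9 genes and medians of 4 other lists on every array (y axis, log2 signal minus the 75th percentile of the array, in log2 units; x axis, arrays by group and replicate). The mean of the 9 genes and the medians of other B cell surface genes and of follicle chemokines and receptors are highest on the 3 colon arrays, whereas the T cell median is highest in small intestine.

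The genes whose levels most resembled the mean of the 9 genes over the 11 tissue arrays were sought among 22154 genes that were well above background on at least 6 of them. Among the 10 closest were Tnfrsf13c (Pearson r = 0.982), H2-Oa (0.981), a transcript named only ENSMUST00000103424 (0.978), Rhbdl3 (0.963), Il4i1 (0.956), Btla (0.950), Cd38 (0.949), Fcmr (0.945) and 6330509M05Rik (0.943). H2-Oa encodes a chain of the peptide-loading regulator of B cells, and Il4i1 an amino acid oxidase. These values describe arrays that share 2 slides and, in part, animals, and they lean on the colon arrays. Without colon replicate 3, over 10 arrays, r was between 0.867 for Cd38 and 0.960 for Tnfrsf13c among the genes named, and without colon, over 8 arrays, between 0.245 for Fcmr and 0.917 for Tnfrsf13c. Among the 36 pairs of members r had a median of 0.881 and a range from 0.514 to 0.973 over the 11 tissue arrays, a median of 0.759 and a range from -0.101 to 0.955 without colon replicate 3, and a median of 0.10 and a range from -0.564 to 0.872 without colon, where 17 pairs were below 0.

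Taken singly, the most similar gene was 6330509M05Rik for Ms4a1 (r = 0.977 over 11 arrays), ENSMUST00000103424 for Cr2 (0.974) and Cd79a (0.971), Il4i1 for Cd79b (0.985), Cd37, a tetraspanin of leukocytes, for Fcer2a (0.974) and Blk (0.933), Tnfrsf13b, a receptor for BAFF and APRIL, for Pou2af1 (0.959) and Sash3, an adaptor of lymphocytes, for Ltb (0.973). The same pairs had r, when colon replicate 3 was left out, between 0.789, for Blk, and 0.960, for Ms4a1.

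Promoter sequence was at hand for 6 of the 9 genes (Cr2, Cd79a, Fcer2a, Pou2af1, Glycam1 and Ltb, 8 sequences in all) in RefSeq on GRCm38.p6, from 250 bases before to 50 after a gene start, and 12 motifs were searched in it. On both strands the octamer ATGCAAAT, the letters bound by the Oct factors that Pou2af1 assists, was in 1.74% of all 32851 promoters and in none of these 6 genes. The NF-kB letters GGGACTTTC were in 0.353% of all promoters and in that of Ltb, on the reverse strand, beginning 86 bases before the gene start. The stretch is shown, with the match in capitals, because it is the rarest of the motifs with a match in a member, a choice made after the matches had been seen, and it overlaps no other motif searched.
Ltb promoter, GRCm38.p6 chr17:35194411-35194439, plus strand: agggtgttcgGAAAGTCCCcgggcagggg

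The shorter PU.1 letters GAGGAAG were in 13.6% of all promoters and in that of Ltb, and the TATA letters TATAAA in 13.6% and in a promoter of Fcer2a. No promoter of these 6 genes held the longer PU.1 letters GAGGAAGT, found in 3.20% of all promoters, the EBF1 letters CCCNNGGG (13.7%) and a longer form of them (0.904%), the short octamer ATGCAAA (4.63%), the NF-kB letters GGAATTTC (0.962%) and GGGAATTTC (0.259%), the GC box CCCCGCCCC (11.4%) or the E box CACGTG (7.15%). A match describes letters and not a bound site, and its absence from this window says nothing about the factor.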

How the data were processed

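Total RNA of 14 samples was hybridized to Agilent SurePrint G3 Mouse 8x60K arrays in 1 color. For each array the authors deposited its scanner file (Feature Extraction 10.7.3.1, probe positions on mm9), and the processed signal in it is an intensity after background subtraction that was not normalized between arrays. The authors also deposited a table of normalized log2 values, made by a method not given in the sources used here, which served as an alternative. Its 28 further columns per sample and its columns of comparisons (fold changes, p-values and adjusted p-values for pairs of groups) were not used.

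Control spots and 103 to 206 outlier spots per array were dropped. Processed signals were put on a log2 scale, set relative to the 75th percentile of their array and averaged over the spots of a probe. RefSeq accessions (GRCm38.p6, for names alone) named 26582 of the 55681 probes. Probes well above background on at least 2 arrays (36359 probes, 26166 genes) were tested by lmFit and eBayes of limma 3.58.1 (R 4.3.3) on the arrays of each pair of groups, with Benjamini-Hochberg adjustment over all probes tested. A gene was called at a log2 difference of 1.2 and an adjusted p of 0.01, read from its brightest probe. The fit was checked on simulated data. Where no array of the dimmer group was well above background, a fold is a lower bound. It takes for each such array the lowest signal that was well above background, or the signal of the probe itself if higher, and averages these.

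All 9 members were named in each comparison, and from 19 lists (146 genes, of which 144 were on the array) up to 4 genes per list and comparison with the largest difference. The remaining list genes named, among them Ltbr, Gcsam, Cxcr4 and the markers of other cells, were named after their values had been seen. Some list genes are not reported here by name. The members, the lists and the tests were chosen with earlier results of these data known. The number of arrays limits the precision. Nothing in the sources ties the CT26 arrays to separate cultures, so their spread may be technical. Alternatives were the deposited table, normexp (offset 50), quantile normalization, other filters, 1 fit of all groups, slide and replicate blocks, an intensity trend, an adjusted p of 0.05, the mean of the probes and each array left out. Tables were made with Python 3.11.15, pandas 2.3.3 and numpy 2.4.6.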

Additional observations from a re-analysis of the deposited data

How the results depend on the processing

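With all arrays kept, the 2 genes called lower in adenomas than in colon became 0 with the slide or the replicate number as a block, with the deposited table and with normexp, 1 with no filter on dim probes, and 4 with all groups in 1 fit or at an adjusted p of 0.05. The 8 genes called lower in CT26 became 3 with the deposited table and 5 with quantile normalization or the slide as a block. The count of 0 between colon and small intestine became 3 with all groups in 1 fit, and the counts of 0 between adenomas and small intestine and between adenomas and adjacent tissue each became 2 at an adjusted p of 0.05. When each array was left out in turn, the counts ran from 0 to 3 between colon and small intestine, from 0 to 5 between adenomas and colon and from 5 to 9 between CT26 and colon. The highest count in each was the one without colon replicate 3. Leaving out any adenoma array or colon replicate 2 gave 0 between adenomas and colon and leaving out colon replicate 1 gave 1, leaving out any CT26 array gave 5 between CT26 and colon, and the cause was not tested. These counts are over all 9 genes, with Glycam1 and Blk, which passed the filter through colon alone.

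Of 898 recomputed differences of the members, 796 kept their sign and their side of the thresholds, 46 lost a call, 23 gained one and 33 changed sign, of which 32 lie among small intestine, adjacent tissue and adenomas and concern differences that no test called. Between adenomas and small intestine the values of changed sign were 0.0133 (Ms4a1), -0.01 (Cd79a), 0.09 (Glycam1) and 0.0267 (Blk) with the deposited table, 0.0887 (Ms4a1) and 0.00321 (Glycam1) with quantile normalization, -0.24 (Cr2) and -0.0563 (Cd79a) with normexp, and -0.0714 (Cr2) and -0.10 (Cd79a) as the mean of the probes. Between adenomas and adjacent tissue they were 0.0767 (deposited table) and 0.0113 (quantile normalization) for Glycam1, and for Blk -0.35 with normexp, -0.0479 with the slide as a block and -0.12 with a replicate block by the number in the sample title. Between adjacent tissue and small intestine they were 0.0133 (deposited table), 0.0759 (normexp) and 0.0346 (replicate block) for Glycam1 and 0.0385 (normexp) for Blk.
With single arrays left out the differences of changed sign ran from -0.72 to 0.51 for Ms4a1, -0.20 to 0.50 for Cr2 and -0.14 to 0.24 for Cd79a between adenomas and small intestine, from -0.79 to 0.94 for Blk between adenomas and adjacent tissue, from -0.26 to 0.16 for Glycam1, -1.33 to 0.41 for Blk and -0.0701 to 0.42 for Ltb between adjacent tissue and small intestine, and from -1.58 to 0.0499 for Pou2af1 between adenomas and colon. The calls of Ms4a1, Cd79b and Ltb between CT26 and colon held under every alternative run.

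Samples of the same replicate number had deviations that correlated between -0.322 and 0.291 over the 6 comparisons. In adjacent tissue the replicate number differs from the number in the sample title, and the correlation between samples of the same title number was not computed. These values therefore cannot decide whether the samples were paired. Over 0.1 for each number were those of adjacent tissue and small intestine, 0.291 and 0.141, with 2 pairs. With the replicate number as a block 6 members were called between CT26 and colon, 0 between adenomas and colon and 0 in each other comparison. Over all genes the calls ranged, with the adjusted p of 0.01 kept, from 2232 to 5558 between adenomas and small intestine (4688 in the comparison as reported), 0 to 1123 between adenomas and adjacent tissue (146), 0 to 65 between adjacent tissue and small intestine (1), 0 to 1037 between colon and small intestine (2), 2 to 2238 between adenomas and colon (513) and 4664 to 10695 between CT26 and colon (8021). With signals near background on most arrays, Blk and Glycam1 are limited by depth outside colon.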
